A study of Pinus pinaster with 8 samples.

Results

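The transcripts described here were those without a known function among the cDNA clones whose signal was higher in compression xylem (Cx) than in opposite xylem (Ox) of maritime pine (Pinus pinaster). They numbered 60 of the 2910 spots on the array. A spot was a member when its mean log2(Ox/Cx) was at most -0.585, a change of 1.5-fold toward Cx, when the ratio was below 0 on all 4 hybridizations, and when the spot belonged to a listed clone whose description gave no similarity to any protein or only an unknown, hypothetical or predicted protein. In all, 226 clones that the study lists as higher in Cx were matched to 1 spot each, and 166 of them had a described function, so that 60 remained. The members were therefore chosen on the ratios themselves, and the ratios of the members are given below as a description, without a test. The study had also put these clones on its list by their ratios on the same slides.

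Developing xylem was scraped from the stems of 4 field-grown adult trees of 25 to 35 years, which had been bent to an angle of 45 degrees for 2 months to induce compression wood. On each tree the Cx sample came from the side of the stem forming compression wood and the Ox sample from the side across from it, so both tissues had been through the same treatment and no unbent tree entered the comparison. RNA of a Cx and an Ox sample was amplified, labelled with Cy3 and Cy5 and hybridized to the same slide, with Cx in Cy3 on hybridizations 1 and 2 and Ox in Cy3 on hybridizations 3 and 4. A negative ratio means a higher signal in Cx. This direction follows the legend of the study's tables, whereas the wording of its methods on the dyes would turn every sign. The samples were bulk tissue, in which fewer cells of a type and less RNA per cell cannot be told apart.

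Compression wood is the reaction wood of conifers, formed on the lower side of a leaning stem. Its tracheids are short and rounded, with thick secondary walls that hold more lignin and less cellulose than those of normal wood, and opposite wood forms on the upper side of the same stem. An expressed sequence tag (EST) is a single read from a cDNA clone, and its description depends on the protein found by a similarity search, so a clone without a description can be followed on an array by its signal alone.

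The 60 members fell into 3 classes by their descriptions. For 24 members no significant similarity had been found, 23 matched an unknown protein of the spruce Picea sitchensis, and 13 matched a hypothetical or predicted protein of another species. The last class held 7 matches to grapevine (Vitis vinifera), 2 to poplar (Populus trichocarpa), 2 to castor bean (Ricinus communis), 1 to the moss Physcomitrella patens and 1 to the bacterium Nocardia farcinica. The roles of the proteins that these clones may encode are not known from the descriptions, and none is given here. The clone with the bacterial match is a case apart, since its sequence overlapped a clone described as an enzyme, as its bases show.

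The ESTs are shown first where sequence bears on the values. They came from the study's list, which was read to at most the first 399 bases of each EST, and positions count from base 1 of the EST. GEM-083-H07, the member with the lowest mean ratio, and GEM-059-A06, the clone without similarity that had the most even ratios among the 10 members of largest change, each held a frame without a stop codon over all 399 bases. The 120 bases from the first ATG of that frame, at base 23 and base 79, are printed with the ATG in capitals.

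GEM-083-H07: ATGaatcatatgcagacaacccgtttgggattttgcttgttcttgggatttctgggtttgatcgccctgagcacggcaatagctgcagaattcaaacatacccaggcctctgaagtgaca
GEM-059-A06: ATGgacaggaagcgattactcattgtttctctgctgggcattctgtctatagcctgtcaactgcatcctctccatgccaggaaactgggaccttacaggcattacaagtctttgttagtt

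A pair of clones differed by an inserted stretch. GEM-093-C02 and GEM-026-H10, both described as unknown in spruce, were identical over 146 bases and again over 76 bases, and GEM-093-C02 held 64 bases between them that GEM-026-H10 lacked. These 64 bases are in capitals in the run from base 143 to base 284 of GEM-093-C02. The 6 bases at the junction in GEM-026-H10, bases 141 to 146, belonged to both matches.

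GEM-093-C02: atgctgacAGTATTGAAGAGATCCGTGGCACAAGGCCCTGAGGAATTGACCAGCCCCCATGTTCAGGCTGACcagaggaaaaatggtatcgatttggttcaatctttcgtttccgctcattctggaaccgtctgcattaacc
GEM-026-H10: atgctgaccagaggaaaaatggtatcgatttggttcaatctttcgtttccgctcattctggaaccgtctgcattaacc

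GEM-045-H04 and GEM-056-C10, also unknown in spruce, were 96.7% identical over 333 aligned bases. The 120 bases from an ATG that both share are printed with the 5 bases that differ in capitals, from base 235 and base 169, respectively.

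GEM-045-H04: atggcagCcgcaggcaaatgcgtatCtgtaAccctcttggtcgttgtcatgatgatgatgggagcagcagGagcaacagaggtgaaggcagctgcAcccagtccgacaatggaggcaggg
GEM-056-C10: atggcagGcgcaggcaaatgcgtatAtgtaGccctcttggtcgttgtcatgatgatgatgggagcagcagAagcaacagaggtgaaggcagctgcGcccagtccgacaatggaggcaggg

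The shortest member, GEM-026-D01 with 111 bases, was 80.3% identical over 122 aligned positions to GEM-055-F09, a member with 123 bases. No similarity to a protein had been found for either clone. Both are printed whole, with runs of 10 or more bases that also occur in the other clone in capitals. GEM-026-D01 held, at base 46, the box B motif GGTTCGANTCC, which in other organisms is part of the internal promoter of transfer RNA genes. In a search of both strands it was the only one of the 226 listed ESTs with a match, or 0.442%. The search allowed no other base in the fixed places of the motif. GEM-055-F09 reads GGTTCAAATCC at the matching place, which departs from the motif only in the base after GGTTC.

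GEM-026-D01: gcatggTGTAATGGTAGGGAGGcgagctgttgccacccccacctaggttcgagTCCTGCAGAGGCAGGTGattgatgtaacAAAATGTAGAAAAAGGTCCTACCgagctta
GEM-055-F09: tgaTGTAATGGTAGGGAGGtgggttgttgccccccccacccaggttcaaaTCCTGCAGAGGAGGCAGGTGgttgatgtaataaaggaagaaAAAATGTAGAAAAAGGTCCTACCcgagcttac

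GEM-031-F05, described as a hypothetical protein of Nocardia farcinica, held in bases 10 to 289 the reverse strand of GEM-009-A08, a described clone for fructokinase 3, the enzyme that phosphorylates fructose. The 280 bases were identical. Beyond the shared run, 110 more listed bases of GEM-031-F05 had no counterpart among the listed ESTs. The 30 bases that end at a TAA of GEM-009-A08, after a frame of 50 codons, are shown against the same bases of GEM-031-F05, with the 3 bases of the TAA in capitals on each strand. Most of the shared run, bases 120 to 399 of GEM-009-A08, lay past this TAA, which ends at base 155. Of the 723 bases of GEM-031-F05 only 399 were read, and which bases gave the bacterial match is not known. The signal of GEM-031-F05 cannot be told apart from signal of the transcript of GEM-009-A08.

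GEM-009-A08: ctagcagctctgacaaaagttcttgccTAA
GEM-031-F05: TTAggcaagaacttttgtcagagctgctag

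According to the methods the clones were read from the 5′ end of the cDNA. GEM-008-B11, with 721 bases among the 3 longest ESTs, nevertheless began with 12 T, in capitals in its first 30 bases.

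GEM-008-B11: TTTTTTTTTTTTcgattccctattataacc

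Each slide carried the array in 2 copies. Columns that formed such a pair correlated at 0.969 to 0.984 over all spots, and columns of the same dye orientation from different slides at 0.843 to 0.875. Columns with the same tree number were always of opposite orientation and correlated at 0.637 to 0.751. Columns of opposite orientation with different tree numbers correlated at 0.635 to 0.791. The labels number the columns of a pair as different trees, so it is not known which tree was on which hybridization. The copies were averaged, and n is 4 hybridizations throughout. The spread between hybridizations may thus hold differences between trees and between slides, which cannot be told apart.

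The median member had a mean log2(Ox/Cx) of -0.85, or 1.81-fold higher signal in Cx. The median over the members was -1.02 on hybridization 1, -0.87 on hybridization 2, -0.92 on hybridization 3 and -0.79 on hybridization 4, whereas the median over all spots lay between -0.03 and -0.01. On all 4 hybridizations the members as a group were thus shifted, as the rule requires. The rule used these same values, so nothing is read from the size of the shift on each. The means ran from -1.72 to -0.59. A change of at least 2-fold was reached by 21 of the 60 members (35%), and 32 members (53.3%) lay past the limit of -0.585 on each hybridization taken alone. Among the 166 described clones the median was -0.91, 64 (38.6%) reached 2-fold and 106 (63.9%) lay past the limit on each hybridization.

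**Figure D1:**
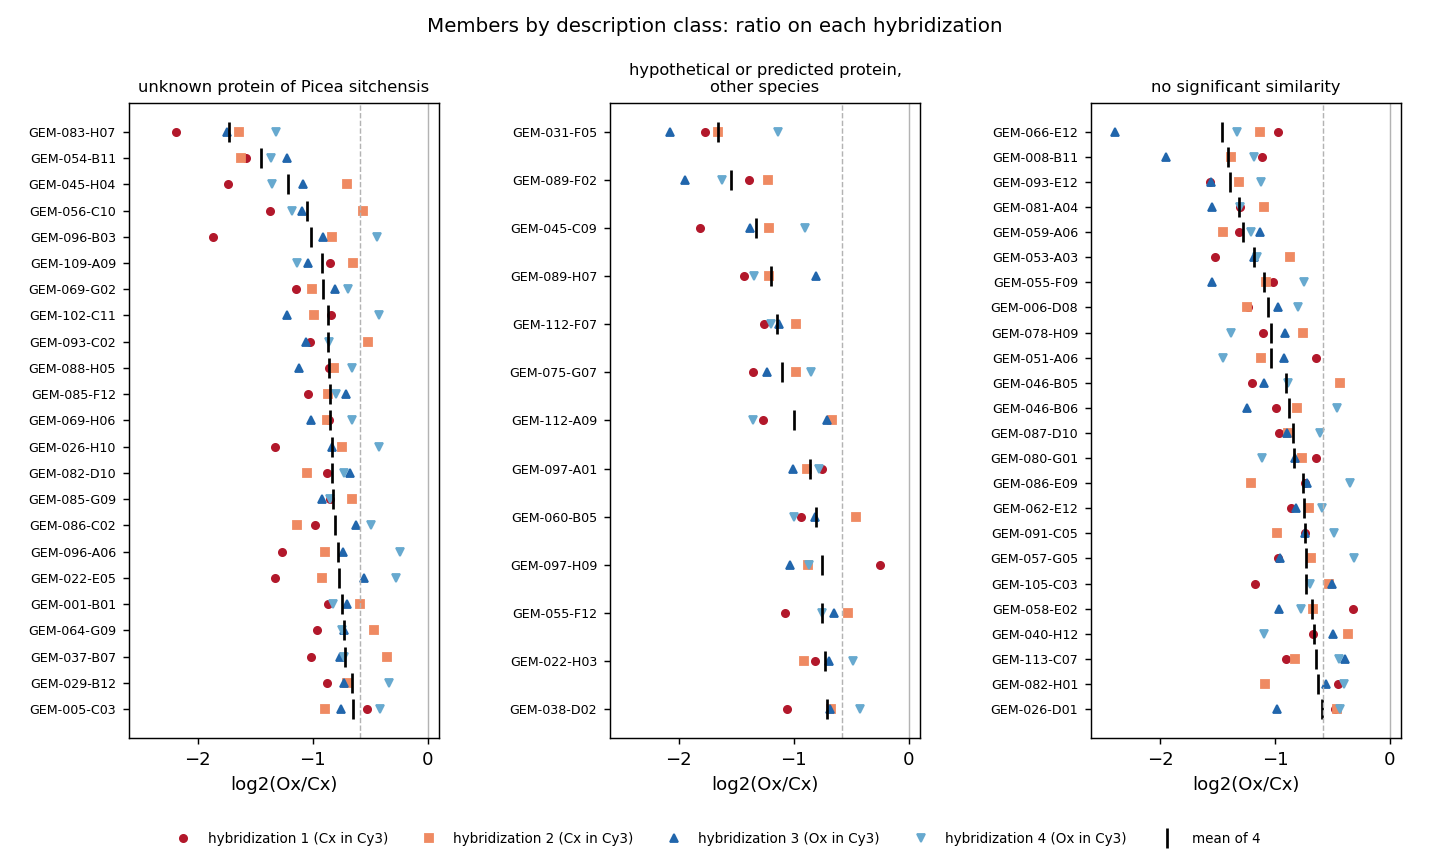
Log2(Ox/Cx) of the 60 members on each of the 4 hybridizations (symbols) with their mean (black tick), in 3 panels by description and ordered by mean; the solid line marks 0 and the dashed line the 1.5-fold limit. All symbols lie left of 0, the means run from -1.72 to -0.59, and GEM-066-E12 has the lowest single value, -2.39 on hybridization 3.

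In the robust limma fit across all spots, 266 of 2910 spots (9.14%) were called higher in Cx by the limits of 1.5-fold and an adjusted p of 0.05, and 57 of the 60 members (95%) and 159 of the 166 described clones (95.8%) were among them. The rule used the same contrast, so nothing is read from these shares. Of the array as a whole 661 spots (22.7%) were below 0 on all 4 hybridizations, and 286 spots (9.83%) met both limits of the rule. The 3 members that were not called were GEM-022-E05, which missed the adjusted p, and GEM-082-H01 and GEM-026-D01, whose robust estimates of -0.55 and -0.48 fell short of 1.5-fold.

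The class with a match in spruce held the member with the largest change. GEM-083-H07 was at -2.19, -1.64, -1.74 and -1.32 on hybridizations 1 to 4, with a mean of -1.72 ± 0.36 (SD, n = 4) or 3.30-fold higher in Cx. GEM-054-B11 was at -1.58, -1.62, -1.23 and -1.36, with a mean of -1.45 ± 0.19 (2.73-fold). Both ESTs were open over all listed bases, with 132 and 133 codons. Most of the class changed less, since its median was -0.85 and 5 of its 23 members (21.7%) reached 2-fold. In this class the lowest of the 4 values was on hybridization 1 for 13 members and the highest never was. For all 60 members the lowest value was on hybridization 1 for 27, on hybridization 2 for 10, on hybridization 3 for 16 and on hybridization 4 for 7. Among the described clones the same counts were 82, 10, 40 and 34 of 166.

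The 13 clones with a hypothetical or predicted protein of another species had the lowest class median, -0.998, and 6 of them (46.2%) reached 2-fold. GEM-031-F05, the clone that overlaps a fructokinase clone, was at -1.78, -1.66, -2.07 and -1.14, with a mean of -1.66 ± 0.39 (3.16-fold). GEM-089-F02, a short EST of 201 bases with a match in grapevine, was at -1.39, -1.22, -1.95 and -1.62, with a mean of -1.54 ± 0.31 (2.92-fold). Its whole sequence recurred in other listed clones, at 98.5% to 99.5% identity with 4 clones of the study's other array, which was not analysed here. GEM-045-C09, also with a match in grapevine, was at -1.82, -1.21, -1.38 and -0.91 (mean -1.33 ± 0.38, 2.51-fold). All 3 clones were past the limit of the rule on each hybridization. GEM-112-A09, a conserved hypothetical protein of castor bean with the highest GC content of its class (56.4%), was at -1.27, -0.67, -0.71 and -1.35 (mean -0.998 ± 0.36). GEM-097-A01, with a match in poplar, had among the most even values of all members, at -0.75, -0.89, -1.01 and -0.78 (mean -0.86 ± 0.12). GEM-097-H09, also with a match in poplar, was at -0.25, -0.87, -1.04 and -0.87 (mean -0.76 ± 0.35), so that hybridization 1 stood apart from the others. Its matches to other listed clones were short, at most 27 bases, and lay in 1 place of the EST on both strands.

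The 24 clones without similarity had a median of -0.86, and 10 of them (41.7%) reached 2-fold. GEM-066-E12 had the widest spread of all members, at -0.97, -1.13, -2.39 and -1.33 (mean -1.46 ± 0.64, 2.74-fold). GEM-008-B11 was at -1.11, -1.38, -1.95 and -1.19 (mean -1.41 ± 0.38, 2.65-fold). Both had their lowest value on hybridization 3, clear of the other 3 values. GEM-093-E12, which was open over all listed bases, was at -1.56, -1.31, -1.55 and -1.12 (mean -1.39 ± 0.21, 2.62-fold). GEM-081-A04 was at -1.30, -1.10, -1.55 and -1.30 (mean -1.31 ± 0.19, 2.49-fold). GEM-059-A06 was at -1.31, -1.45, -1.13 and -1.21 (mean -1.28 ± 0.14, 2.42-fold). In these 3 clones the 4 hybridizations differed little beside the size of the change. GEM-062-E12, whose GC content of 58.6% was the highest of all members, was at -0.86, -0.70, -0.82 and -0.59 (mean -0.74 ± 0.12).

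The smallest changes were also in this class. GEM-113-C07, the member with the lowest GC content (31.1%), was at -0.90, -0.82, -0.39 and -0.44 (mean -0.64 ± 0.26). GEM-082-H01 was at -0.45, -1.09, -0.55 and -0.40 (mean -0.62 ± 0.32), and GEM-026-D01 at -0.48, -0.46, -0.98 and -0.44 (mean -0.59 ± 0.26). In each of these last 2 clones a single hybridization carried the mean past the limit. The 3 spots nearest to the limit on its other side, with all values below 0, had means of -0.584, -0.582 and -0.578, so that the limit separated spots of nearly equal ratio.

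The SD over the 4 hybridizations ran from 0.111 to 0.640, with a median of 0.27 against 0.24 for the described clones. GEM-085-G09, unknown in spruce, had the lowest SD, at -0.85, -0.66, -0.91 and -0.85 (mean -0.82). GEM-096-B03 and GEM-022-E05, both unknown in spruce, were among the 3 members of highest SD. GEM-022-E05 was at -1.33, -0.92, -0.55 and -0.28 (mean -0.77 ± 0.46), so that both values with Cx in Cy3 were lower than both with Ox in Cy3. The difference between the copies of a slide was smaller, with a median over the members of 0.13 for the largest of the 4 differences of a spot.

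The difference between the dye orientations does not enter the mean that the rule used, but the rule also required all 4 values to be below 0, which limits how far the orientations of a member could differ. The dye values of the members are therefore not independent of their choice. The change was larger with Cx in Cy3 for 34 of the 60 members (56.7%) and for 96 of the 166 described clones (57.8%). The median over the members was -0.92 with Cx in Cy3 and -0.88 with Ox in Cy3. GEM-066-E12 had a mean of -1.05 with Cx in Cy3 and -1.86 with Ox in Cy3, a difference of 0.81 ± 0.36 (SE) and the largest among the members in that direction (adjusted p = 0.18, limma). GEM-022-E05 was at -1.12 and -0.41, a difference of -0.71 ± 0.18 (adjusted p = 0.0792, limma), the largest among the members in the other direction. With 2 hybridizations in each orientation the dye effect passed an adjusted p of 0.05 in limma for 0 of the 60 members and 0 of 2910 spots (0%). On simulated data the same fit recovered 36.1% of dye effects of 1 log2 unit, so the count of 0 does not show that such effects were absent. At an unadjusted p under 0.05 there were 1091 spots (37.5%), 9 members (15%) and 33 described clones (19.9%); these clones were listed for a small spread on the same slides, so the lower share is not independent of their choice. With the copies of a slide kept apart as a random block 5 members and 891 of all spots were called for a dye effect, and with the tree number as the block 16 and 1564. Both fits took the copies as added values, and with the tree number the 2 copies of a slide counted as independent. Dye and hybridization cannot be told apart where each orientation holds other slides.

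**Figure D2:**
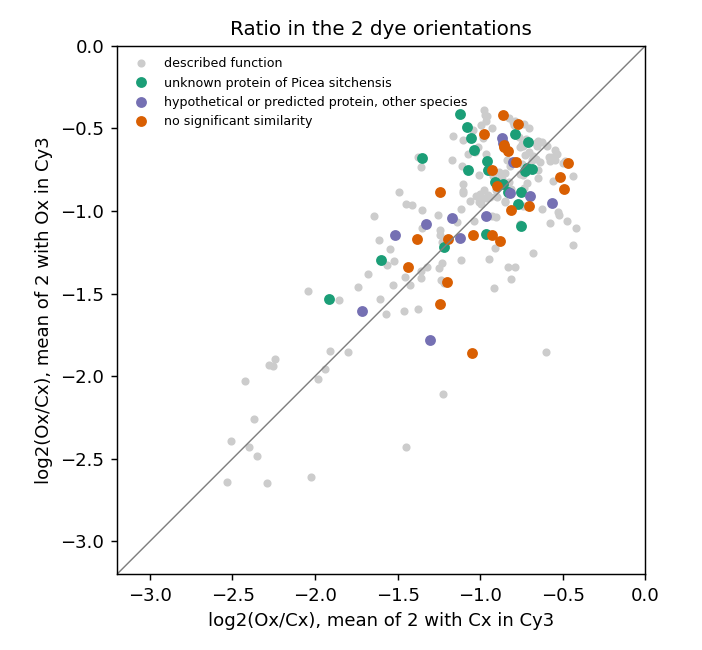
Mean log2(Ox/Cx) of the 2 hybridizations with Cx in Cy3 (horizontal) against the mean of the 2 with Ox in Cy3 (vertical), for the 60 members in colour by description and the 166 described clones in grey; the line marks equal values. The members lie on both sides of the line, 34 of 60 above it, and GEM-066-E12 at -1.05 and -1.86 lies farthest below it among the members.

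Members that share sequence were not independent. Of the 60 members, 11 shared sequence with another listed clone and 7 of these with another member, and 5 pairs on this array were set side by side, the short matches of GEM-097-H09 left aside. GEM-045-H04 was at -1.73, -0.70, -1.08 and -1.35 (mean -1.22 ± 0.44), and GEM-056-C10 at -1.37, -0.56, -1.09 and -1.18 (mean -1.05 ± 0.35). The difference between them was -0.16 ± 0.15 (SD, n = 4). Both clones were highest on hybridization 2 and lowest on hybridization 1, and GEM-056-C10 stood at rank 3 of the other 225 listed clones by likeness of profile to GEM-045-H04, measured as the root mean square difference of the 4 values after each clone's mean was removed.

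GEM-026-H10 was at -1.33, -0.75, -0.83 and -0.43 (mean -0.83 ± 0.37). GEM-096-B03, identical to it over 188 bases from base 212, was at -1.87, -0.83, -0.91 and -0.44 (mean -1.01 ± 0.61), and GEM-093-C02, identical to it before base 216, was at -1.02, -0.52, -1.06 and -0.86 (mean -0.86 ± 0.24). GEM-026-H10 thus followed the order of values of GEM-096-B03, which it exceeded by 0.18 ± 0.24, and not that of GEM-093-C02, from which it differed by 0.03 ± 0.36. By likeness of profile GEM-026-H10 stood at rank 4 of 225 from GEM-096-B03 and at rank 143 from GEM-093-C02, and in the other direction these stood at rank 53 and rank 125 from GEM-026-H10. The matches of GEM-026-H10 to the other two met at bases 212 to 216, 5 bases that belonged to both, and those clones shared no sequence with each other at the E-value used.

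GEM-055-F09 was at -1.01, -1.07, -1.55 and -0.74 (mean -1.10 ± 0.34) and GEM-026-D01, with the values given above, was less changed on each of the 4 hybridizations. The difference was -0.51 ± 0.14, larger than its spread, and the profiles were alike (rank 9 and rank 10 of 225), with the lowest value on hybridization 3 in both. GEM-009-A08, 1 of 2 described fructokinase 3 clones, was at -1.79, -1.57, -1.77 and -0.99 (mean -1.53 ± 0.37), and GEM-031-F05 differed from it by -0.13 ± 0.13. Both clones had the highest value on hybridization 4 and stood at rank 6 and rank 5 of 225 from each other. The other fructokinase 3 clone, GEM-001-D03, was put in the same contig by the study but shared no sequence with GEM-031-F05 in the listed bases. It was at -2.76, -2.31, -2.92 and -2.37 (mean -2.59 ± 0.30, 6.01-fold), lower than GEM-031-F05 on each hybridization, with a mean difference of -0.93 ± 0.24. In the exact two-sided sign-flip test over 4 hybridizations, 16 assignments of sign exist, of which at least 2 are always as extreme as the data, so that no pair could pass 0.05. The number as extreme was 2 for GEM-055-F09 and GEM-026-D01 and for GEM-026-H10 and GEM-096-B03, 4 for the pairs of GEM-045-H04 and of GEM-031-F05, and 14 for GEM-026-H10 and GEM-093-C02 (adjusted p over the 5 pairs 0.31 to 0.88).

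**Figure D3:**
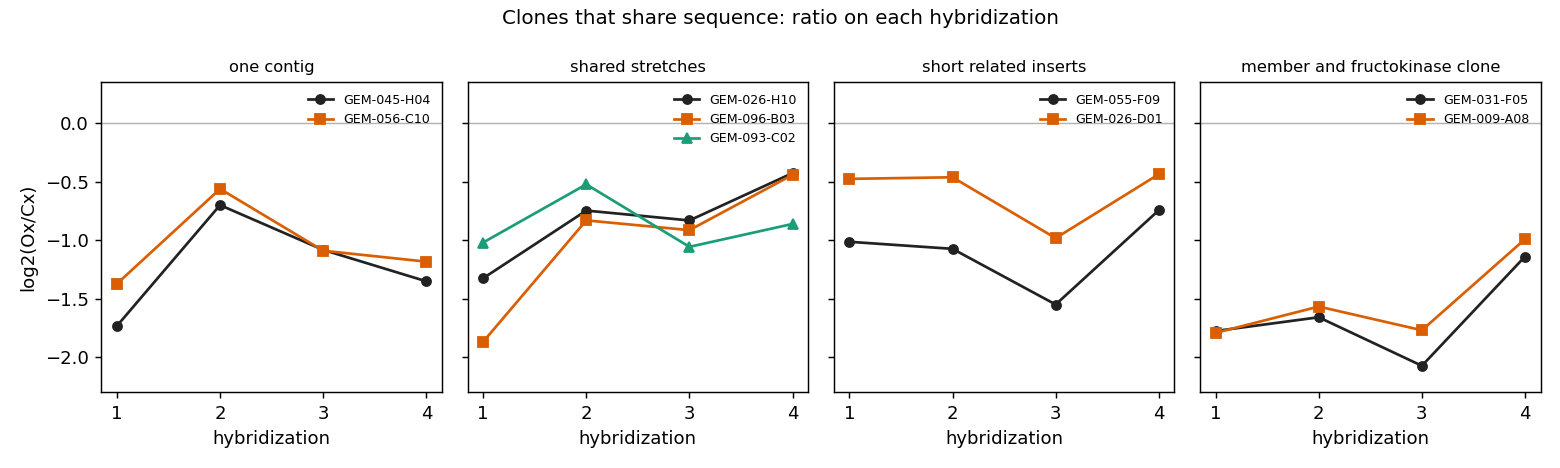
Log2(Ox/Cx) on hybridizations 1 to 4 (horizontal axis) for clones that share sequence, 1 line per clone in 4 panels; hybridizations 1 and 2 had Cx in Cy3. GEM-031-F05 and GEM-009-A08, a fructokinase clone, differ by 0.13 on average, whereas GEM-026-D01 lies above GEM-055-F09 on every hybridization, by 0.51 on average.

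With GEM-031-F05, GEM-056-C10, GEM-096-B03 and GEM-093-C02 left out, 56 members remained and the median was -0.84. GEM-026-D01 and GEM-055-F09, at 80.3% identity, were both kept. GEM-029-B12, unknown in spruce, shared 24 bases with a clone of the other array and was at -0.87, -0.70, -0.73 and -0.34 (mean -0.66 ± 0.23).

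The sequences of the members differed from those of the described clones in ways that the rule on ratios did not use, although the description itself depends on sequence. The median EST length was 541.5 bases for the members and 573.5 for the described clones, with 508 for the clones without similarity, 525 for those unknown in spruce and 586 for those with a match in another species. ESTs under 200 bases made up 5 of the 24 clones without similarity (20.8%), 1 of the 23 clones unknown in spruce, none of the 13 others and 13 of the 166 described clones (7.83%). Besides GEM-026-D01 and GEM-055-F09 these were GEM-086-E09 with 112 bases, GEM-046-B05 with 145 bases, GEM-046-B06 with 196 bases and, in the spruce class, GEM-109-A09 with 160 bases. GEM-086-E09 was at -0.74, -1.21, -0.72 and -0.35, GEM-046-B05 at -1.20, -0.43, -1.10 and -0.89, and GEM-109-A09 at -0.85, -0.65, -1.04 and -1.14. The means of the 6 short clones lay between -1.10 and -0.59, above those of the 10 members of largest change. This split depends on the limit of 200 bases. GEM-089-F02 with 201 bases (mean -1.54) and GEM-066-E12 with 229 bases (mean -1.46) were both among those 10.

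The longest open frame on the given strand, which within 399 bases can reach 133 codons, had a median of 65 codons in the clones without similarity, 95 in those unknown in spruce, 115 in those with a match in another species and 114 in the described clones. A frame open over all listed bases was found in 15 members (25%) and in 76 described clones (45.8%). The opposite strand held the longer open frame in 9 of the 24 clones without similarity (37.5%), in 4 of the 23 unknown in spruce (17.4%), in 2 of the 13 others (15.4%) and in 29 of the described clones (17.5%). The polyadenylation motif AATAAA occurred on the given strand in 9 members (15%) and 22 described clones (13.3%), and the median GC content was 44.9% in both groups. Across the 60 members, mean ratio and EST length had a Pearson correlation of -0.14, mean ratio and GC content of -0.15, and mean ratio and longest open frame of -0.07, given as a description across clones, some of which share sequence and all of which share the slides. All 3 correlations were weak.

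**Figure D4:**
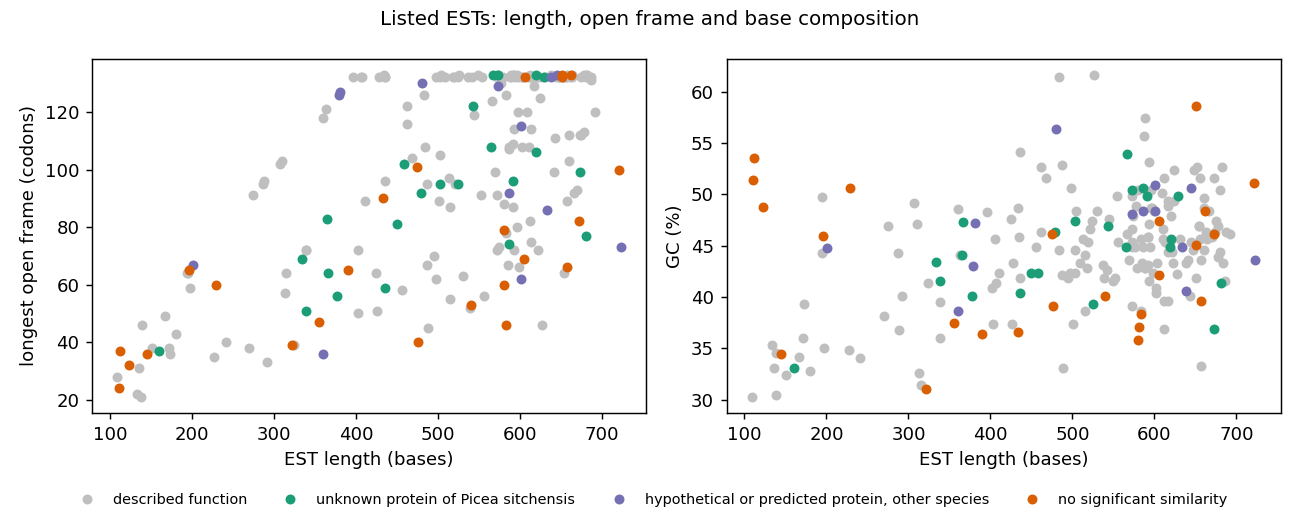
EST length in bases (horizontal) against the longest open frame in codons within the first 399 listed bases (left) and GC content in percent (right), 1 point per clone, for the 60 members by description and the 166 described clones in grey. Clones without similarity lie low on the left, with a median of 65 codons against 114 for the described clones, while GC medians are 43.6% and 44.9%.

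The number after Q in the spot identifiers was taken as a plate number, from the form of the identifiers alone. The members were spread over these plates. They numbered 8, 6, 4, 6, 8, 13, 12 and 3 on plates 1 to 8, with 384 spots on each of plates 1 to 7 and 183 on plate 8, and plate 9 with 39 spots held none. Plate 6 had the highest share of members, 3.39% of its spots, and plate 3 the lowest of plates 1 to 8 with 1.04%. Spots past both limits of the rule, members or not, were 14.8% of plate 1 and between 7.29% and 12.5% of plates 2 to 8.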

How the data were processed

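Per the labels and the paper's methods, spots were quantified in GenePix, corrected for background by normexp and normalized by print-tip loess within each array, and the authors deposited the resulting log2 ratios, in 8 columns over 2910 spots with 0 missing values. The submitters' notes name R 2.7.1 and limma 2.14.5. Intensities were not used, so filters on signal or flags were not applied, and the number of arrays limits the precision. The study itself kept fewer spots after such filters. The shares over all spots and the adjustment across them therefore include spots that it had set aside. Each of the 8 columns belonged to a sample and 0 were left out. The sign of the 4 columns that had Ox in Cy3 was turned, and the 2 copies on a slide were averaged, which gave 4 hybridizations with 2 in each orientation. The direction is that of the study's list, since the mean of the turned columns equalled its value for log2(Ox/Cx) within 1e-05 for all 226 clones. This equality also joined spots to clone names, and the listed values served for nothing else.

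Spots were fitted in limma 3.58.1 (R 4.3.3, statmod 1.5.0) with a robust linear model of at most 200 iterations and empirical Bayes, with Benjamini-Hochberg adjustment across all spots. The dye effect was fitted by least squares with a tissue and a dye term. On simulated data with 200 changed spots of 2910, the Cx fit recovered 96.1% with 14.6% of calls false, and the dye fit 36.1% with 2.57% false. The simulated calls used the adjusted p alone, without the 1.5-fold limit, and the simulated noise was normal, without a dye effect in the Cx fit. The false share of the Cx fit lay above the nominal level, and it is not the error rate of the calls on the data. ESTs were compared by blastn 2.17.0 on both strands at an E-value of at most 1e-5. Summaries and plots were made with matplotlib 3.10.9, pandas 2.3.3, scipy 1.17.1 and numpy 2.4.6 under Python 3.11.15.

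Members and lists were chosen with earlier results of these data known. Clones named were the 10 with the largest and the 3 with the smallest change, those sharing sequence, the 3 at either end of SD, length and GC content, and those not called; GEM-046-B06 was named after its values were seen. No genome was used, so positions are within the EST. Alternatives covered the fit, the scaling of columns, each orientation alone, the copies, the tree numbers and leaving out each hybridization.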

Additional observations from a re-analysis of the deposited data

Results flagged for a closer look

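Among the 60 members, each tested over its 4 hybridizations, 1 had a single value far from the others. GEM-026-D01 was at -0.98 on hybridization 3 and between -0.48 and -0.44 on the other 3, a gap of 0.927 of its whole range. The limit for such a flag lay below this gap and is passed by chance in about 1 group in 20. Among 60 members tested, 1 flag is thus no more than chance would give. GEM-055-F09, which is related to GEM-026-D01 in sequence, also had its lowest value, -1.55, on hybridization 3.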

How the results depend on the processing

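The 29 members named by rule were recomputed under the alternatives, and all 261 values kept their direction and stayed within 1 SD of the hybridizations. Most of this was fixed in advance. Every value of a member was below 0 by the rule, so an average over fewer hybridizations could not change direction. By arithmetic it could not move by 1 SD either. Centring the columns moved each mean by 0.019, against SDs of at least 0.111. Stability is therefore not read from these values. The median of the members lay between -0.91 and -0.83 when each hybridization was left out in turn and between -0.92 and -0.84 under the other settings. These include the set without the clones left out above for shared sequence, a set chosen after seeing the data. Members called toward Cx were 57, and between 54 and 60 under other fits and scalings, 44 with Cx in Cy3 alone, 48 with Ox in Cy3 alone, and 42 to 56 when each hybridization was left out, the fewest without hybridization 3. All spots called were 266, 253 to 287 under other fits and scalings, 243 and 267 in the same 2 orientations alone, and 212 to 281 without each hybridization. In either orientation alone the count of members thus fell, while that of all spots changed little. The members were chosen on their values over all hybridizations, so fewer of the same slides could hardly raise their count. Spots outside the rule were free to gain calls, and nothing is read from this contrast. For the dye effect, members rose from 0 to 5 and all spots from 0 to 891 with the copies as a random block, which treats copies as added values, and to 16 and 1564 with the tree number as a replicate block. The 2 copies of a slide carry different tree numbers, so the replicate block counted them as independent values. Deviations of columns with the same tree number correlated at 0.00, -0.03, -0.02 and -0.01, and the numbers were therefore not treated as pairs. With that replicate block 60 members and 287 spots were called toward Cx. Members sharing sequence were 11, and 9 at an E-value of at most 1e-10. The deposited ratios hold no depth or signal over background, and bases of an EST beyond the first 399 were not read, so shared sequence there was not detectable.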
